A study of Rattus norvegicus with 12 samples.

Results

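Glucose uptake, glycolysis and lactate transport were followed through 32 genes in the striatum of male Wistar rats. The genes were taken by name: 3 lactate transporters, 2 glucose transporters, and 27 genes for the enzymes of glycolysis, their regulators, lactate dehydrogenase, the pyruvate dehydrogenase complex and its kinases, and glycogen metabolism. The array carried 14629 named genes, and all 32 were among the 11110 of them that were measured well enough to be tested. RNA came from the striatum of rats whose left medial forebrain bundle had been injected with 6-hydroxydopamine (6-OHDA), a toxin that kills dopamine neurons, and each of 4 groups held 3 rats with 1 array per sample. ZDL is the lesioned side after L-DOPA (100 mg/kg) with zonisamide (50 mg/kg), DL the lesioned side after L-DOPA (100 mg/kg) alone, SL the lesioned side after saline, and NL the non-lesioned side after saline. Treatment was given once a day for 7 days. L-DOPA, the dopamine precursor, followed benserazide, which blocks its conversion outside the brain, and zonisamide, an antiepileptic drug used in Parkinson's disease, was given 30 min after L-DOPA. Every rat, the NL rats included, carried the 6-OHDA lesion, had received a methamphetamine challenge (3 mg/kg) and had been kept for turning at least 7 times per min after it. NL is therefore the other side of a lesioned brain and not an intact animal, and the labels do not say whether the NL and SL samples came from the same rats. The lesion is of the dopamine input and not of the striatal neurons themselves, whose survival was not tested here. Of their marker genes 11 were tested, and the log2 of the summed signal was 7.46 to 8.04 over the 12 samples. Such a sum is weighted to the brightest genes of a list.

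Glucose reaches the brain through the facilitative transporters GLUT1 (Slc2a1), which is dense in the endothelium of brain capillaries and also found in astrocytes, and GLUT3 (Slc2a3), the main neuronal form. Glycolysis turns it into pyruvate, which lactate dehydrogenase interconverts with lactate and which the pyruvate dehydrogenase complex passes to the mitochondrion. Lactate and pyruvate cross membranes with a proton through the monocarboxylate transporters MCT1 (Slc16a1), found in endothelium and glia, MCT2 (Slc16a7), the high-affinity neuronal form, and MCT4 (Slc16a3), a low-affinity form linked to lactate export from glycolytic cells and known as a target of hypoxia-inducible factor (HIF).

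The pair of transporters with the widest differences between groups, Slc16a1 and Slc16a3, is shown first by promoter sequence, since both are lactate transporters and their levels in DL lay on opposite sides of those in SL. Each stretch runs from 250 bases before to 50 after the gene's start in RefSeq's GRCr8 build, at chr2:194812410-194812709 for Slc16a1 and chr10:106712078-106712377 for Slc16a3, both on the plus strand. Capitals mark matches, on either strand, to ACGTG or GCGTG (cores of the HIF site), CACGTG (an E-box, which contains ACGTG on both strands), TGACG (the core of a cyclic-AMP response element) and CCACCC (a Krüppel-like factor box).
Slc16a1: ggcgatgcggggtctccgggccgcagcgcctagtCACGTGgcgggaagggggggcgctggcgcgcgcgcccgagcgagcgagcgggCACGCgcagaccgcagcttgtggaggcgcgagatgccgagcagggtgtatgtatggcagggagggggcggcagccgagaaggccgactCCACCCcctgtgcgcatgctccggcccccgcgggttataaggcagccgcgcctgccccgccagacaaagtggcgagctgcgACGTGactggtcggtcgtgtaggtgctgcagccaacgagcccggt
Slc16a3: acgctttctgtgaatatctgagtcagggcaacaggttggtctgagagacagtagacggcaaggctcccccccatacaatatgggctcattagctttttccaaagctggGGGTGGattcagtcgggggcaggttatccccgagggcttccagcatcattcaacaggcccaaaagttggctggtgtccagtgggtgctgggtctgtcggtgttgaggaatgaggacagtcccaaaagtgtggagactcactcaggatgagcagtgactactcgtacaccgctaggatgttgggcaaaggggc
The Slc16a1 window held CACGTG from -216 to -211 relative to the start, GCGTG on the minus strand from -164 to -160, CCACCC from -76 to -71 and ACGTG from 6 to 10. In the Slc16a3 window the single match was CCACCC on the minus strand from -142 to -137. Of the 32 genes, 30 had a promoter in the RefSeq table, giving 34 windows. ACGTG lay in 58.8% of these and in 19.3% of all 33469 rat promoters of that length, GCGTG in 50% and 29.7%, CACGTG in 14.7% and 6.42%, TGACG in 38.2% and 21.2%, and CCACCC in 44.1% and 29.4%. The windows also differed in base composition, with a median GC content of 62% for the 34 and 51.7% for all, and the part of GC content in these shares was not tested. A match describes the letters and is not a bound site.

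A level is the log2 signal minus that of the 75th percentile of the same array, so that 0 is the array's own 75th percentile. Levels are compared between arrays for 1 gene and not between genes. Differences are log2 changes with their standard error (SE) from a limma fit over all 12 arrays and 19412 features; a gene is called changed at an adjusted p (Benjamini-Hochberg over all features) under 0.05. With 3 against 3 samples an exact permutation test of a single gene could not go below p = 0.1, so no such test was run. The 75th percentile lay between 793 and 1737 intensity units, between 67.7% and 74.0% of probes per array were well above background, and arrays correlated at 0.935 to 0.984 over all features. The chosen probes of 31 of the 32 genes were well above background on all 12 arrays and none was saturated.

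Of the 32 genes, 1 was called in L-DOPA against lesioned saline, and it fell: Slc16a1. In that comparison 0.433% of all features were called, and 0.103% were called lower. None of the 32 was called in L-DOPA with zonisamide against L-DOPA (0.479% of features), in lesioned against non-lesioned saline (0% of features) or in L-DOPA with zonisamide against lesioned saline (0% of features). At an unadjusted limma p under 0.05 the counts among the 32 were 3 in DL against SL (11.3% of features), 4 in ZDL against DL (12.4%), 2 in SL against NL (8.48%) and 1 in ZDL against SL (7.34%), shares near or below those over all features. The groups did not overlap for 4 of the 32 in DL against SL (22.4% of features), 4 in ZDL against DL (17.3%), 4 in SL against NL (17%) and 6 in ZDL against SL (18.1%). The median log2 change of the 32 was 0.10 in DL minus SL, 0.01 in ZDL minus DL, -0.03 in SL minus NL and 0.04 in ZDL minus SL, beside -0.03, -0.03, 0.05 and -0.05 over all features. The median size of change, sign aside, was 0.14, 0.15, 0.17 and 0.16 in the same order, beside 0.24, 0.24, 0.22 and 0.22 over all features. DL minus SL and ZDL minus DL share the DL arrays, so a sample high or low in DL enters both with opposite sign.

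**Figure D1:**
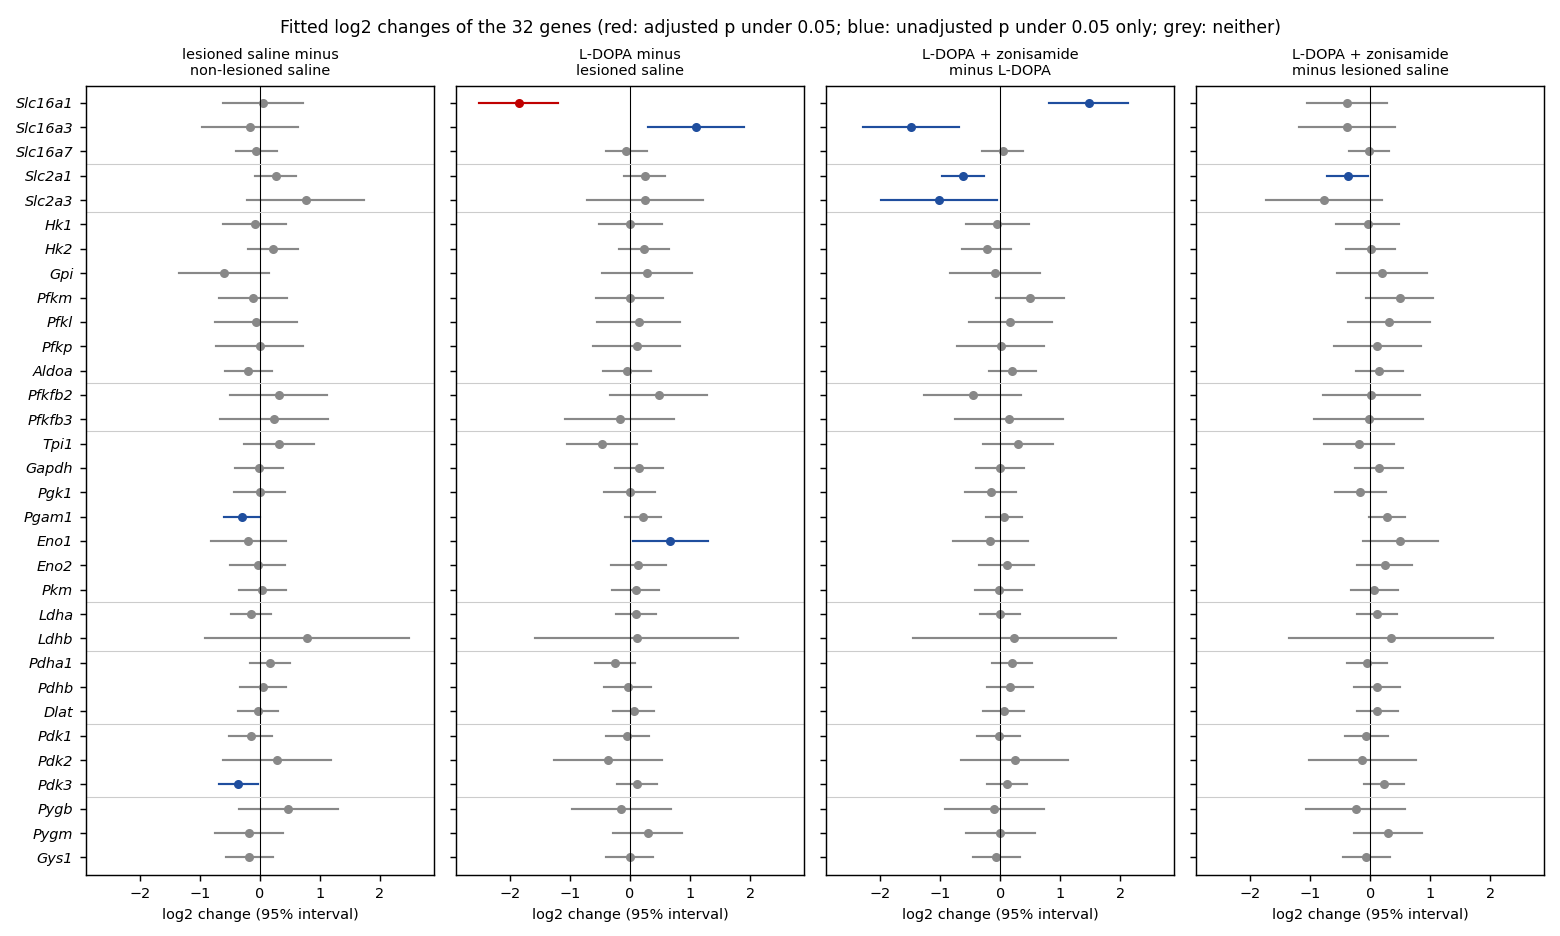
Fitted log2 changes of the 32 genes (points) with 95% intervals (lines) in 4 comparisons, genes grouped by role from lactate transport at the top to glycogen at the bottom. Red marks an adjusted p under 0.05 (Slc16a1, L-DOPA minus lesioned saline, -1.86), blue an unadjusted p under 0.05 alone, and grey neither; in the zonisamide comparison with L-DOPA the blue points are 4 transporters.

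Slc16a1, the proton-coupled carrier MCT1, read -1.54, -1.48 and -2.12 in the 3 ZDL samples, -3.00, -2.80 and -3.75 in DL, -1.17, -1.39 and -1.42 in SL, and -1.43, -0.91 and -1.78 in NL. All 3 DL samples lay below every sample of the other groups. The ZDL samples lay below every SL sample by a small margin, where 18.1% of all features did not overlap. NL overlapped both ZDL and SL. In DL it fell 3.63-fold relative to SL (log2 change -1.86, SE 0.30, 95% interval -2.52 to -1.20, limma adjusted p = 0.034). ZDL minus DL was 1.47 (SE 0.30, interval 0.81 to 2.13), 2.77-fold higher in ZDL, with the groups not overlapping and an adjusted p of 0.0664 that missed the threshold. ZDL minus SL was -0.39 (SE 0.30, interval -1.05 to 0.27) and SL minus NL 0.05 (SE 0.30, interval -0.61 to 0.71), neither called.

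The Slc16a1 call in DL minus SL held in 4 of the 12 fits that left out 1 array. Calls over all features moved too. From 64 higher and 20 lower they went to 1 and 1 without SL replicate 1, and to 137 and 73 without DL replicate 1. With slide as a fixed block there were 0 calls in either direction. SL replicate 3 and NL replicate 3 each sat alone on a slide, so they add nothing to the comparisons of that fit. With 1 array left out in turn the log2 change stayed between -2.05 and -1.58, and the adjusted p rose above the threshold without NL replicate 1 (0.0576), SL replicate 1 (0.135), SL replicate 2 (0.146), SL replicate 3 (0.117), DL replicate 2 (0.0776), DL replicate 3 (0.112), ZDL replicate 1 (0.0520) or ZDL replicate 2 (0.0513). Background correction by normexp gave a smaller difference, -1.18 with an adjusted p of 0.16. Within the slides that held both groups, DL minus SL was -1.84 and -1.41, and with slide as a fixed block -1.77 with an adjusted p of 0.291. ZDL minus DL within slides was 1.47, 1.32 and 1.62, but 0.81 (adjusted p = 0.495) and 0.88 (0.324) with the 2 normexp settings.

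Slc16a3, the MCT4 carrier, read -2.27, -3.38 and -2.31 in ZDL, -1.53, -0.71 and -1.26 in DL, -2.20, -2.30 and -2.28 in SL, and -2.67, -2.07 and -1.54 in NL. The DL samples were above all ZDL and SL samples, while NL reached up to just under the lowest DL sample. ZDL minus DL was -1.49 (SE 0.36, interval -2.29 to -0.69, adjusted p = 0.113 by limma), 2.80-fold lower in ZDL and not called. DL minus SL was 1.09 (SE 0.36, interval 0.29 to 1.89, adjusted p = 0.276), a 2.13-fold difference that also missed the threshold. With Ttr as a covariate DL minus SL was 0.57 (adjusted p = 0.968). Within slides DL minus SL was 0.67 and 1.59, and ZDL minus DL was -0.74, -2.67 and -1.05. Slc16a1 and Slc16a3 thus lay on opposite sides in both comparisons; the difference between the 2 genes was not tested.

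Slc16a7, the neuronal MCT2, read -3.38, -3.37 and -3.06 in ZDL, -3.17, -3.55 and -3.21 in DL, -3.21, -3.23 and -3.31 in SL, and -3.13, -3.12 and -3.30 in NL. The groups overlapped in all 4 comparisons. Its 95% intervals were -0.30 to 0.38 in ZDL minus DL, -0.40 to 0.28 in DL minus SL and -0.40 to 0.27 in SL minus NL.

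**Figure D2:**
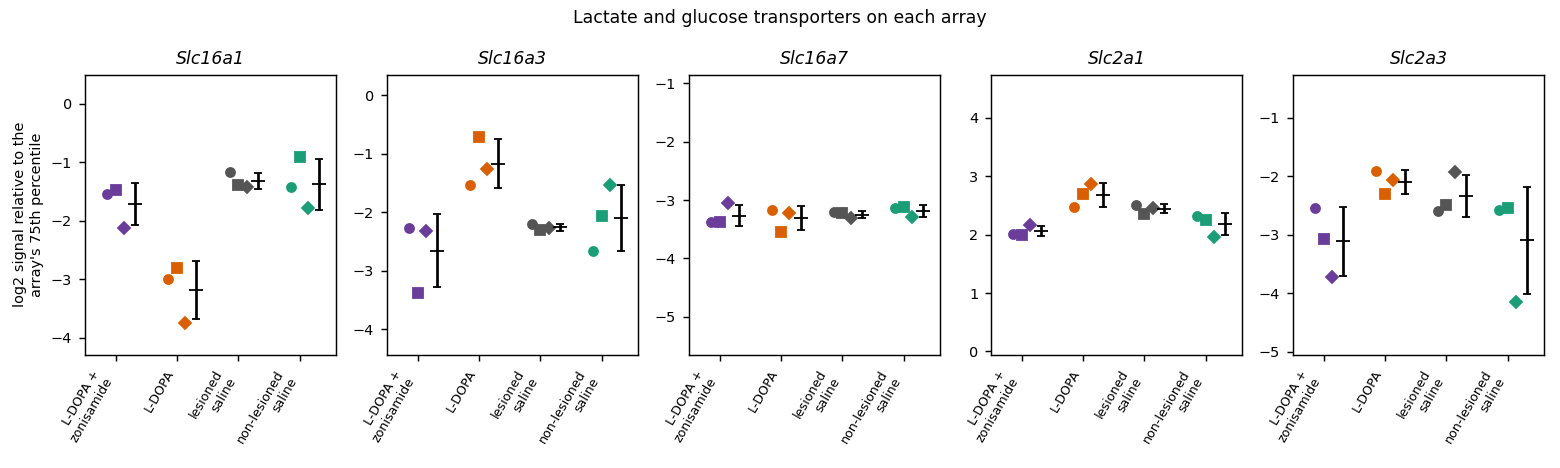
Level of 3 lactate and 2 glucose transporters on each of 12 arrays (vertical axis, log2 signal relative to the array's 75th percentile; circle, square and diamond are replicates 1, 2 and 3), with the group mean and SD (n = 3) at the right of each group. The panels span the same number of log2 units around each gene's own mean: L-DOPA stands low for Slc16a1 (mean -3.19) and high for Slc16a3 (mean -1.17), and Slc16a7 stays between -3.55 and -3.06.

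Among glucose transporters, Slc2a1 read 2.02, 2.00 and 2.16 in ZDL, 2.46, 2.70 and 2.87 in DL, 2.51, 2.35 and 2.46 in SL, and 2.32, 2.25 and 1.96 in NL. The ZDL samples lay below every DL and SL sample and within the range of NL. ZDL minus DL was -0.62 (SE 0.15, interval -0.96 to -0.28, limma adjusted p = 0.121), 1.54-fold lower in ZDL, and ZDL minus SL was -0.38 (SE 0.15, interval -0.72 to -0.04, adjusted p = 0.666). Neither was called. Within slides ZDL minus DL was -0.45, -0.70 and -0.71. This probe and that of Slc16a7 were printed on 10 spots per array, those of Slc16a1, Slc16a3 and Slc2a3 on 2.

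Slc2a3 read -2.55, -3.07 and -3.72 in ZDL, -1.91, -2.31 and -2.06 in DL, -2.60, -2.49 and -1.93 in SL, and -2.59, -2.55 and -4.15 in NL. The ZDL samples were below the DL samples but overlapped SL and NL, and NL replicate 3 was the lowest of all 12. ZDL minus DL was -1.02 (SE 0.44, interval -1.99 to -0.05, adjusted p = 0.369 by limma), not called. The within-slide values were -0.64, -0.76 and -1.66. With the 2 normexp settings it was -0.51 and -0.44.

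**Figure D3:**
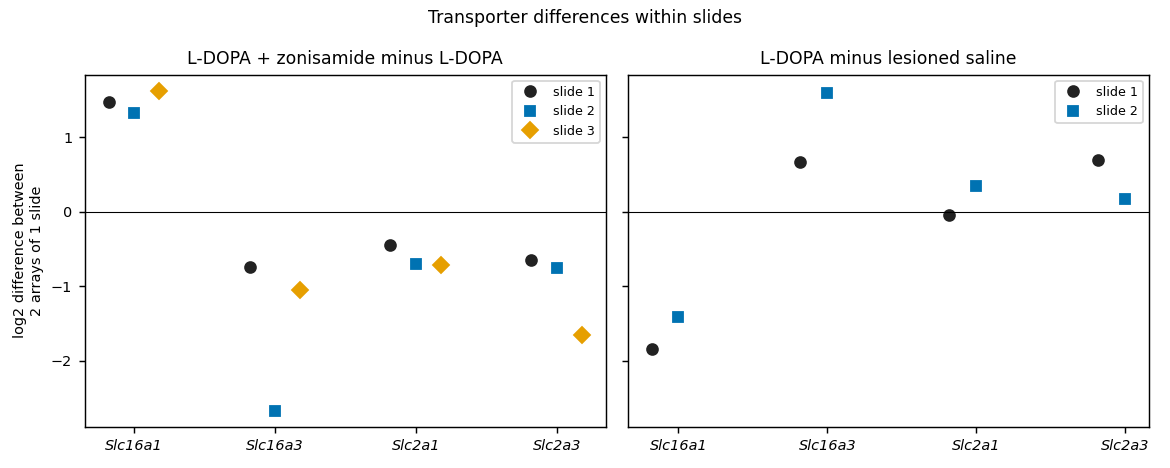
Log2 difference between the 2 arrays of the compared groups on the same slide (vertical axis) for 4 transporters, L-DOPA with zonisamide minus L-DOPA on 3 slides (left) and L-DOPA minus lesioned saline on 2 slides (right). Slc16a1 lies at 1.32 to 1.62 on the left and at -1.84 and -1.41 on the right; Slc16a3, Slc2a1 and Slc2a3 all lie below 0 on the left.

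The transporters are expressed in capillary endothelium and glia as well as neurons, so markers of other cells were read beside them. Of 18 endothelial markers 17 were tested. The log2 of their summed signal was 3.37 to 3.61 in ZDL, 3.85 to 4.12 in DL, 3.66 to 3.95 in SL and 3.29 to 3.71 in NL. Sums of other lists are given in the same way. In ZDL minus DL 12 of the 17 were below 0, 6 were lower without overlap (10.5% of all features) and none was called; those with the smallest p were the tight-junction gene Cldn5 at -0.92 (SE 0.19), the VEGF receptor gene Kdr at -1.45 (SE 0.29), Pecam1 at -0.93 (SE 0.19) and Emcn at -1.45 (SE 0.30), with limma adjusted p from 0.0664 to 0.0705. In DL minus SL the 17 split into 9 above and 8 below 0 with a median of 0.05, from Kdr at 1.30 (SE 0.29) and Emcn at 0.96 (SE 0.30) to Abcg2, an efflux pump gene, at -1.08 (SE 0.45), and none was called. In ZDL minus DL, Slc2a1, Slc2a3 and Slc16a3 lay below 0, as did 12 of the 17 endothelial markers. Slc16a1 lay above 0, as did the other 5 markers (up to 0.49). Choroid plexus markers, 10 tested of 12, summed to 2.85 to 6.78 in ZDL, 4.40 to 7.43 in DL, 0.36 to 4.44 in SL and 2.54 to 7.11 in NL, spanning several log2 units within every group. In DL minus SL, the comparison in which Slc16a1 was called, all 10 were above 0 with a median of 2.54 and 5 were higher without overlap (11.7% of all features), Ttr being 3.85 (SE 1.60), and none was called. An array gives no true 0, so no marker is listed at 0. The part of these cells in the transporter values was not tested, beyond a fit with the choroid gene Ttr as a covariate. There Slc16a1 in DL minus SL was -1.48 (limma adjusted p = 0.388), and no feature of any kind was called in that comparison. In tissue RNA fewer cells of a type and less RNA per cell cannot be told apart.

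None of the 27 genes that are not transporters was called in any comparison, and in ZDL minus DL none reached an unadjusted limma p under 0.05, where 12.4% of all features did. Their log2 changes ran from -0.46 to 0.50 in ZDL minus DL, from -0.47 to 0.67 in DL minus SL, from -0.60 to 0.78 in SL minus NL and from -0.25 to 0.50 in ZDL minus SL. The 95% interval stayed within 1 log2 unit, a 2-fold change, either way for 22, 20, 21 and 22 of the 27 in that order, so a 2-fold change lay outside the interval for most of these genes and within it for the rest.

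**Figure D4:**
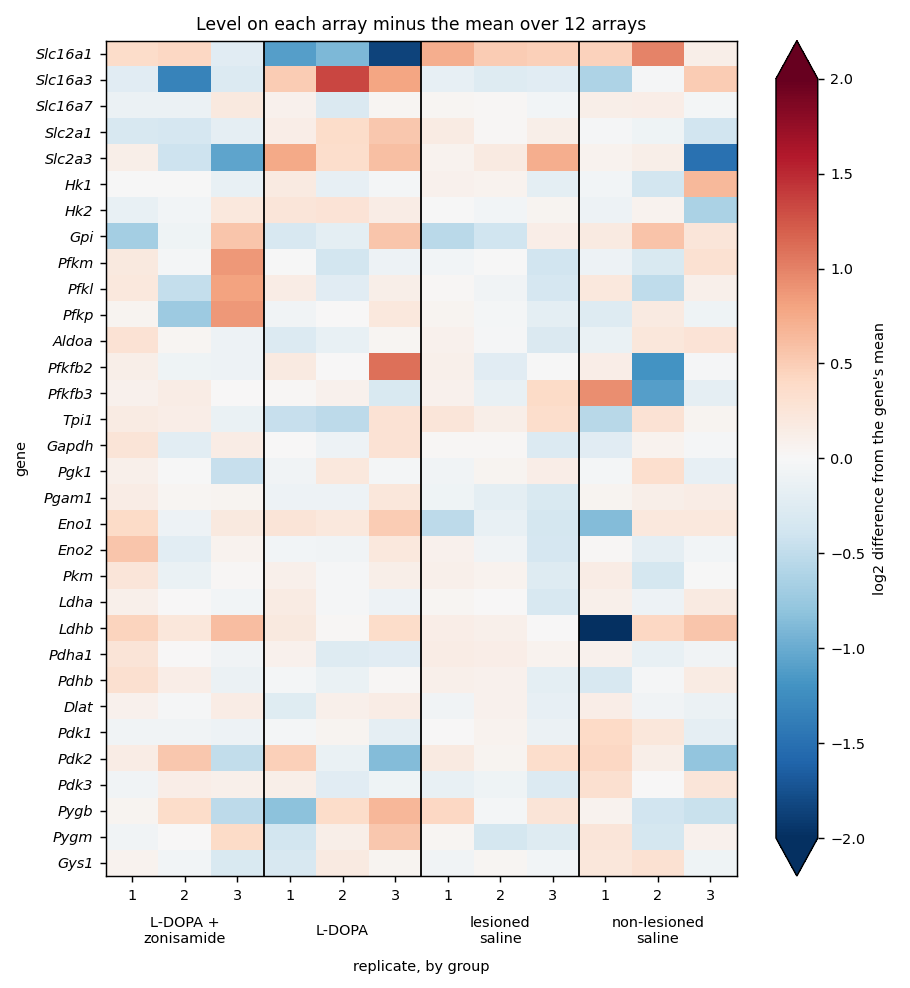
Level of each of the 32 genes (rows, by role) on each array (columns, 3 replicates per group, L-DOPA with zonisamide at the left), as the log2 difference from the gene's own mean over 12 arrays; colours end at 2 log2 units either way. The contrast of L-DOPA with the other groups shows in the first rows, and the darkest cell outside them is Ldhb in non-lesioned replicate 1.

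Glucose is trapped in the cell by hexokinase. Hk1, the main brain form, read 3.37, 3.36 and 3.22 in ZDL, 3.54, 3.21 and 3.33 in DL, 3.46, 3.44 and 3.18 in SL, and 3.32, 3.00 and 4.02 in NL. Hk2, an inducible form, read -4.96, -4.86 and -4.59 in ZDL, -4.56, -4.53 and -4.65 in DL, -4.82, -4.85 and -4.76 in SL, and -4.91, -4.73 and -5.43 in NL. The 3 DL samples of Hk2 were above all SL samples by a small margin (0.23, SE 0.19, not called), 1 of 3 genes of the 32 higher without overlap in DL against SL (11.7% of all features). Hk1 overlapped in every comparison.

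Further along the upper part of the pathway, Gpi, which isomerises glucose-6-phosphate, ranged from 3.03 to 4.27 in ZDL, 3.39 to 4.26 in DL, 3.16 to 3.84 in SL and 3.89 to 4.28 in NL. It was lower in SL than in NL without overlap (-0.60, SE 0.34, limma adjusted p = 0.644), and 8.34% of all features were lower without overlap there. Of the phosphofructokinase subunits, Pfkm was 0.50 (SE 0.25) in ZDL minus DL, and Pfkl and Pfkp were 0.17 (SE 0.31) and 0.01 (SE 0.33). All 3 subunits were highest of the 12 samples in ZDL replicate 3, at 4.57 for Pfkm, -0.39 for Pfkl and 5.90 for Pfkp. The aldolase gene Aldoa lay between 3.51 and 4.09 on all arrays.

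The bifunctional enzymes that set fructose-2,6-bisphosphate, the activator of phosphofructokinase, were dim. Pfkfb3, the strongly kinase-biased form, read -4.60, -4.54 and -4.67 in ZDL, -4.66, -4.59 and -4.99 in DL, -4.59, -4.83 and -4.29 in SL, and -3.75, -5.79 and -4.86 in NL. Its probe was well above background in 2 of 3 samples of ZDL, DL and NL and in all 3 of SL, and a second probe gave -0.83 in ZDL minus DL where the first gave 0.15, so the 2 probes disagree. Pfkfb2 ranged from -4.33 in NL replicate 2 to -2.03 in DL replicate 3, with no comparison called.

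In the lower part, Eno1, the enolase found in many cell types, read 4.63, 4.15 and 4.45 in ZDL, 4.50, 4.47 and 4.76 in DL, 3.73, 4.11 and 3.90 in SL, and 3.38, 4.47 and 4.47 in NL. The SL samples lay below every ZDL and DL sample. DL minus SL was 0.67 (SE 0.28, limma adjusted p = 0.413), not called, with 0.78 and 0.36 within slides; with Ttr as a covariate it was 0.32. Eno2, the neuronal enolase, was 0.13 (SE 0.21) in the same comparison.

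Pgam1, phosphoglycerate mutase, read 5.72, 5.61 and 5.63 in ZDL, 5.48, 5.47 and 5.81 in DL, 5.49, 5.37 and 5.27 in SL, and 5.63, 5.69 and 5.72 in NL. All SL samples were below all NL samples (-0.30, SE 0.14, adjusted p = 0.588 by limma, not called) and below all ZDL samples. Pkm, pyruvate kinase, read 2.79, 2.42 and 2.57 in ZDL, 2.65, 2.53 and 2.68 in DL, 2.65, 2.62 and 2.30 in SL, and 2.70, 2.20 and 2.55 in NL, and the groups overlapped throughout. Tpi1, triose phosphate isomerase, was -0.47 (SE 0.26) in DL minus SL on its brighter probe and 0.01 on the other. The dehydrogenase gene Gapdh was -0.01 (SE 0.18) in ZDL minus DL on the chosen probe, while its other probes gave -0.42 and 0.83. Pgk1, phosphoglycerate kinase, lay between 4.25 and 5.05.

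Lactate dehydrogenase subunit A, favoured in glycolytic cells, showed no called change. Ldha read 4.65, 4.55 and 4.50 in ZDL, 4.72, 4.53 and 4.46 in DL, 4.60, 4.56 and 4.24 in SL, and 4.66, 4.45 and 4.73 in NL, with a 95% interval of -0.33 to 0.34 in ZDL minus DL and -0.23 to 0.44 in DL minus SL. Ldhb, the subunit that favours lactate use, read 5.30, 5.07 and 5.47 in ZDL, 5.05, 4.87 and 5.21 in DL, 4.99, 4.96 and 4.86 in SL, and 1.77, 5.27 and 5.41 in NL. NL replicate 1 stood far below the other 11 samples. With it, SL minus NL was 0.78 (SE 0.76); without it, -0.41 (SE 0.17); neither was called. All ZDL samples were above all SL samples (0.35, SE 0.76, not called). The 4 groups share an estimate of the spread, so NL replicate 1 also widens this SE.

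Pyruvate entry into the mitochondrion showed no called change. The complex subunits Pdha1, Pdhb and Dlat had log2 changes between -0.24 and 0.19 in all 4 comparisons. A second Pdha1 probe read -6.13 in NL replicate 1, against 0.50 and 0.68 in the other NL samples. None of the kinases that switch the complex off was called. Pdk2 read 1.87, 2.27 and 1.23 in ZDL, 2.20, 1.60 and 0.85 in DL, 1.91, 1.78 and 2.07 in SL, and 2.15, 1.83 and 0.93 in NL, a spread within ZDL, DL and NL wider than any difference between group means. Pdk3 read -1.03, -0.81 and -0.86 in ZDL, -0.84, -1.18 and -1.03 in DL, -1.11, -1.05 and -1.23 in SL, and -0.64, -0.95 and -0.71 in NL. SL was below NL without overlap (-0.36, SE 0.15, limma adjusted p = 0.576, not called). Pdk1 stayed between -2.83 and -2.26.

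The glycogen genes, brain and muscle phosphorylase (Pygb, Pygm) and glycogen synthase (Gys1), ranged from -0.25 to 0.47 in log2 change over the 4 comparisons. Pygb varied most within groups, from -0.03 to 1.46 in DL. A second, dim Gys1 probe gave -0.42 in SL minus NL, where the chosen one gave -0.18. Of the 32 genes 24 had 1 probe and 8 had several, and no probe of any of them other than that of Slc16a1 was called.

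Other genes of glucose and lactate metabolism were read from a list that does not hold the 32. Of 86 listed, 75 were on the array and 62 were tested, and 0 were called by limma in any comparison. At an unadjusted limma p under 0.05 there were 8 of the 62 in DL minus SL (11.3% of all features) and 5 in ZDL minus DL (12.4%). There were 1 in SL minus NL (8.48%) and 4 in ZDL minus SL (7.34%), so the counts were near or below those shares. Pdk4, the starvation-induced kinase of pyruvate dehydrogenase, read -7.85, -8.44 and -8.28 in ZDL, -7.31, -8.34 and -7.10 in DL, -6.85, -5.99 and -5.29 in SL, and -6.60, -5.67 and -6.92 in NL. It was not well above background on any ZDL or DL array and was so on 2 SL and all 3 NL arrays. Aldoc, the astrocyte-enriched aldolase, was -0.70 (SE 0.21, adjusted p = 0.222) in DL minus SL and not called.

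HIF target genes outside the 32 were listed because several glycolytic genes and Slc16a3 are known HIF targets. Of 25 listed here, 20 were tested. Of these 1 was called, higher in DL against SL (0.33% of all features were called higher), and none was called in the other comparisons. At an unadjusted limma p under 0.05 there were 3 of the 20 in DL minus SL (11.3% of all features) and 3 in ZDL minus DL (12.4%). There were 0 in SL minus NL (8.48%) and 2 in ZDL minus SL (7.34%). Bhlhe40, a circadian and hypoxia-responsive repressor, read -2.49, -2.92 and -2.71 in ZDL, -2.96, -2.41 and -2.30 in DL, -3.99, -3.63 and -4.03 in SL, and -3.76, -3.46 and -3.83 in NL. It rose in DL against SL (1.32, SE 0.21, adjusted p = 0.0347 by limma) and lay above SL in all 3 ZDL samples (1.17, SE 0.21, adjusted p = 0.377, not called). With 1 array left out in turn its change in DL minus SL was 1.19 to 1.52, and the adjusted p missed the threshold without NL replicate 1 (0.0576), NL replicate 2 (0.0541), SL replicate 1 (0.138), SL replicate 2 (0.0936), SL replicate 3 (0.137), DL replicate 2 (0.144), DL replicate 3 (0.132) or ZDL replicate 3 (0.0510). The median of the 20 was 0.02 in DL minus SL and -0.07 in ZDL minus DL, beside -0.03 in both over all features. Ddit4, a stress-induced inhibitor of mTOR signalling also in this list, lay at -0.77 (SE 0.20) in DL minus SL, on the other side from Bhlhe40 and the peptide hormone gene Adm (1.36, SE 0.28), and neither Ddit4 nor Adm was called.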

How the data were processed

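RNA from 12 striatal samples was hybridised to 1-colour Agilent rat arrays, 1 array per sample. Per the file headers, the deposited files hold spot intensity values from Agilent Feature Extraction 10.7.3.1, gProcessedSignal being background-subtracted, with probes designed on rn4; the deposited series table held the same intensity values for every spot. From these, log2 gProcessedSignal minus each array's 75th percentile was computed, flagged outlier spots were left out, spots of a probe were averaged, and probes well above background on all 3 arrays of at least 1 group were kept: 21469 probes, 19412 features (1 probe per gene symbol, the brightest; probes with no symbol kept). limma 3.58.1 (R 4.3.3) was fitted over the 4 groups with 8 residual degrees of freedom, two-sided, Benjamini-Hochberg over all features.

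gMeanSignal was not used here, so the normexp alternative started from gMedianSignal and gBGMedianSignal intensity with an offset of 50. The fit was run on simulated arrays with independent noise, as a check of the size and direction of planted changes. That check does not cover arrays of a slide that deviate together. Members and lists were chosen with earlier results of these data known. The rule gave array values for 12 set members, for those called or with an unadjusted p under 0.05, and at most 4 genes per list and comparison; Pdk4, Aldoc, Adm and Ddit4 come under it, while the Pdha1, Gapdh, Gys1 and Pfkfb3 second probes were accounted for as all probes were. Same-numbered ZDL and DL arrays shared a slide and deviated together (correlations 0.370, 0.194 and 0.254). A pairing by number cannot be told apart from a slide effect there. In the other comparisons some same-numbered arrays also shared a slide. Their correlations had both signs, as for DL and SL (0.198, -0.115 and -0.018, the last on different slides). Array number limits the precision. 1 gene of the HIF target list is not reported here.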

Additional observations from a re-analysis of the deposited data

How the results depend on the processing

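Of 28 alternatives, 12 left out 1 array and 1 (without the arrays of high spot spread) gave no SL minus NL value. No called value reversed. The median log2 change of the 32 genes moved by at most 0.14 in any comparison, less than its SD between arrays of 0.18. The Slc16a1 change in DL minus SL kept its direction in 27 alternatives, and with every probe as a feature it was -1.86 (adjusted p = 0.0332). The count of the 32 called in DL minus SL was 0, in place of 1, with either normexp setting, with no filter on dim probes (Slc16a1 adjusted p = 0.0517), with only the 2 groups compared, with slide as a fixed block, without the arrays of high spot spread and with Ttr as a covariate; it was 0 to 1 with 1 array left out. In ZDL minus DL it was 1, in place of 0, with array weights (Slc16a1 adjusted p = 0.0466) and with slide as a random block (0.0467), and 0 with any array left out. HIF targets called in DL minus SL numbered 0, in place of 1, with both normexp settings, no dim filter and only the 2 groups. They also numbered 0 with the replicate block, the fixed slide block, without the high-spread arrays and with Ttr. They numbered 2 with the mean of a gene's probes, 3 with array weights (446 of all features called) and 0 to 2 with 1 array left out. With the replicate block, Slc16a1 had an adjusted p of 0.0263 in DL minus SL and 0.0547 in ZDL minus DL, and the block changed no call among the 32. The cause of these losses was not tested. Quantile normalization moved the median of all features in SL minus NL to -0.09 from 0.05, and in ZDL minus SL to 0.07 from -0.05. Over all features, calls higher and lower in DL minus SL were 64 and 20, but 27 and 3 with normexp and quantile normalization. With normexp and the 75th percentile they were 1 and 1, and in ZDL minus DL 0 and 0. Calls over all features ran from 0 to 446 in DL minus SL (84 as reported), 0 to 253 in ZDL minus DL (93), 0 to 13 in SL minus NL (0) and 0 to 3 in ZDL minus SL (0). Low signal limits Pfkfb3 and Pdk4, whose probes lay near background in some groups.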

Other observations

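Marker lists of other cell types had no called gene in any comparison at the limma threshold. The ranges below are the log2 of a list's summed signal, which is weighted to its brightest genes. Microglial markers, 8 tested, summed to 4.13 to 4.28 in ZDL, 4.44 to 4.76 in DL, 4.53 to 4.999 in SL and 3.91 to 4.46 in NL. The ZDL range lay below those of DL and SL and within that of NL, and the NL range lay below that of SL. Blood markers, 5 tested, summed to 3.87 to 4.55 in ZDL, 4.49 to 5.47 in DL, 4.69 to 4.94 in SL and 4.58 to 5.06 in NL. Astrocyte markers, 11 tested, summed to 5.80 to 6.47 in ZDL, 6.10 to 6.56 in DL, 6.06 to 6.51 in SL and 6.14 to 6.45 in NL. Oligodendrocyte markers, 12 tested, reached 6.68 to 7.06 in ZDL, 6.78 to 7.26 in DL, 6.89 to 7.91 in SL and 6.68 to 7.26 in NL. Pan-neuronal markers, 8 tested, gave 4.99 to 5.49 in ZDL, 5.03 to 5.30 in DL, 4.86 to 5.22 in SL and 4.99 to 5.19 in NL, and the 11 spiny neuron markers 7.48 to 7.89 in ZDL, 7.54 to 7.73 in DL, 7.80 to 7.86 in SL and 7.46 to 8.04 in NL. The DL range of the spiny neuron markers lay below that of SL. In DL minus SL 7 of the 11 were below 0 and 4 above. The groups did not overlap for 4, all lower in DL (22.4% of all features did not overlap). The 4 cortical neuron markers tested were dim, at -2.57 to -0.70 in ZDL, -3.01 to -0.60 in DL, -2.30 to -1.50 in SL and -2.93 to -2.39 in NL.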
